A study of Mus musculus with 6 samples.

Results

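The genes described here make up the fibroblast growth factor (FGF) axis: the FGF ligands, the intracellular FGF homologous factors, the FGF receptors, their Klotho co-receptors and the adaptor proteins that couple the receptors to signalling. They were chosen by name, and 35 of 36 chosen symbols had a row on the array paired with that 1 symbol, among 22180 genes in all. These were 18 ligands, 4 homologous factors, 5 receptors, 2 co-receptors and 6 adaptors. Frs2 was not analysed here.

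The RNA came from cultured heart muscle cells of 1-day-old C57BL/6 mice, enriched by letting the faster-attaching cells settle on a first plate. All cells were kept for 12 h in low oxygen, with 2% O2, 5% CO2 and 93% N2. In 3 samples FGF21 protein was present at 1 µg/ml, and 3 control samples had none. Each sample was measured on 1 Affymetrix Mouse Gene 2.0 ST array, and no sample in normal oxygen was analysed here, so what follows is the comparison of FGF21 with no FGF21 in hypoxic cells.

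FGFs are secreted proteins that bind receptor tyrosine kinases on the cell surface. Most need heparan sulfate chains beside the receptor and act near the cell that makes them. The endocrine FGFs, FGF15, FGF21 and FGF23, bind heparan sulfate weakly, travel in the blood and need a Klotho protein as co-receptor: beta-Klotho (Klb) for FGF15 and FGF21, alpha-Klotho (Kl) for FGF23. An active receptor phosphorylates the docking proteins FRS2 and FRS3, which recruit GRB2, SOS, GAB1 and the phosphatase SHP2 (Ptpn11) and so switch on the RAS to ERK and PI3K pathways. In the heart, FGF21 is known as a protective hormone and FGF23 as a signal linked to hypertrophy.

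No gene of the axis passed the test over all genes. Of the 35 measured genes, 0 had a limma adjusted p under 0.05, and the smallest was 0.322, for Ptpn11. The share of all 22180 genes called at that threshold was 0%. At an unadjusted limma p under 0.05 there were 3 genes, Fgf23 and Frs3 lower and Ptpn11 higher with FGF21. This was 8.57% of the axis genes, below the 11.7% of all genes that reached the same p. The values with and without FGF21 did not overlap for 4 axis genes, which are 11.4% of them, against 17.1% of all genes. Of these 4, 2 were higher (Ptpn11 and Grb2) and 2 lower (Fgf23 and Frs3), where 8.99% of all genes were higher and 8.14% lower without overlap. The median log2 difference over the axis was -0.0029, and over all genes -0.0056, with 17 axis genes higher and 18 lower.

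RNA levels of the FGF axis are given as values of the robust multi-array average (RMA), which are on the log2 scale. A value 1 unit higher means a doubled signal of that row. The brightness of a row depends on its probes as well as on the RNA, so the rows cannot be put in an order of RNA amounts. The array median over all rows, from 5.76 to 5.83 on the 6 arrays, was used as a first mark. It was lower on every array with FGF21 (5.79, 5.76 and 5.79) than on every control array (5.81, 5.82 and 5.83). A second mark was the 95th percentile of 1091 rows of odorant receptor genes, most of which are not known to be active in heart cells. It lay between 5.99 and 6.20 and describes how bright a row can be when little of its RNA is expected.

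Above the array median on all 6 arrays were 23 of the 35 axis genes (65.7%), against 55.8% of all genes. By role these were 11 of 18 ligands, 3 of 4 homologous factors, 3 of 5 receptors, 0 of 2 co-receptors and 6 of 6 adaptors. A further 11 genes lay at or below it on every array, and Fgf21 was above it on 5 arrays. The stricter mark of the odorant receptor rows was passed on all 6 arrays by 18 axis genes (51.4%), against 48.1% of all genes. Between the marks on some or all arrays lay Fgf2, Fgf8, Fgf9, Fgf10, Fgf21 and Frs3. With the 99th percentile of the odorant receptor rows as the mark, 11 axis genes (31.4%) remained above it, against 30.4% of all genes. With the median over the 22180 genes in place of all rows, 17 axis genes (48.6%) were above it, against 46.4% of all genes.

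**Figure D1:**
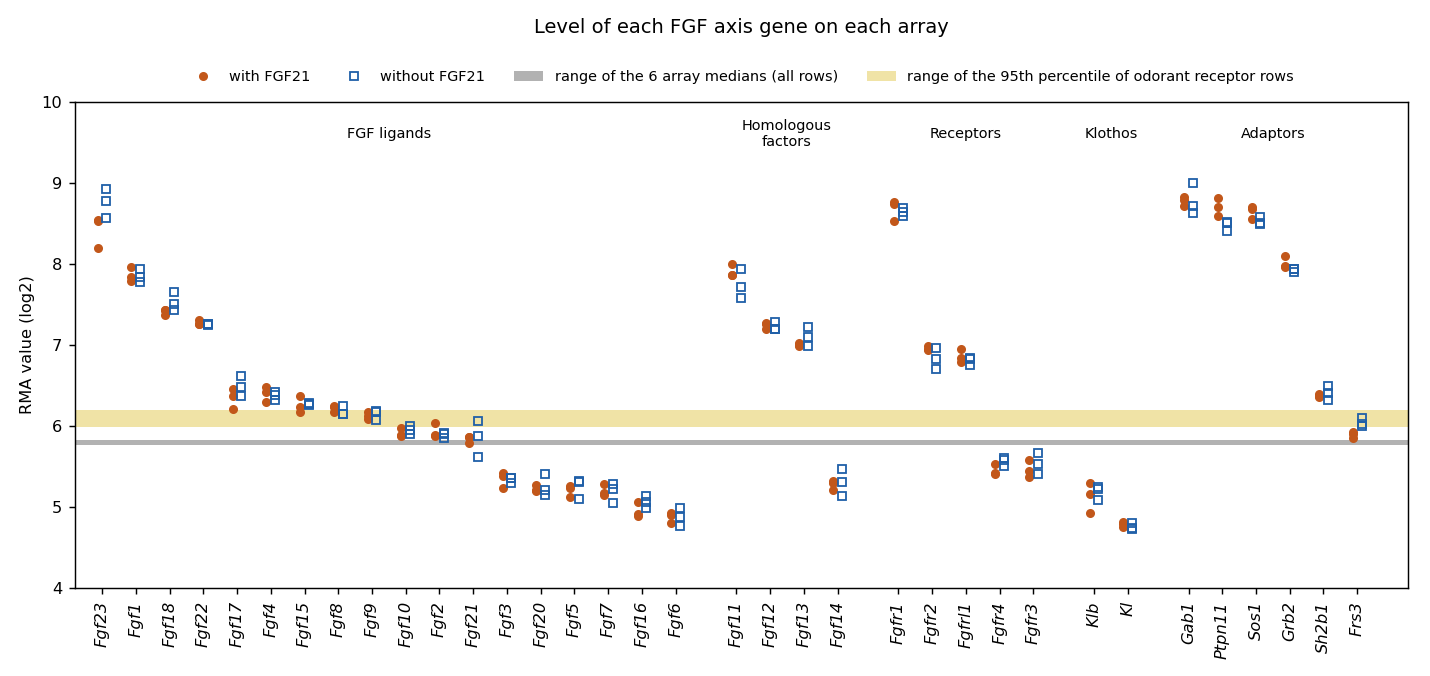
RMA value (log2) of each FGF axis gene on each array, with filled circles for the 3 arrays with FGF21 and open squares for the 3 without; the grey band spans the 6 array medians (5.76 to 5.83) and the yellow band the 95th percentiles of the odorant receptor rows (5.99 to 6.20). Both Klotho genes lie under both bands, while Fgfr1 and the adaptors Gab1, Ptpn11, Sos1 and Grb2 lie far above them.

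Fgfr1 encodes the receptor through which FGF21 mainly signals when beta-Klotho is present. It stood at 8.75, 8.77 and 8.53 with FGF21 and at 8.64, 8.69 and 8.60 without, above the 75th percentile of all rows (7.07 to 7.12) on every array. The groups overlapped, and the log2 difference was 0.04 ± 0.08 (SE), with a 95% interval from -0.14 to 0.21. The level of Fgfr2, a receptor with epithelial and mesenchymal splice forms, was 6.93, 6.99 and 6.95 with FGF21 and 6.70, 6.97 and 6.83 without. Its difference of 0.12 ± 0.08 (95% interval -0.05 to 0.30) did not pass, with a limma adjusted p of 0.554. Control replicate 1 was the low array, and without it the difference was 0.06, while without control replicate 2 it was 0.192 with an unadjusted limma p of 0.0315.

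Fgfrl1 encodes a receptor-like protein that binds FGFs but lacks the tyrosine kinase domain. Its values were 6.79, 6.95 and 6.84 with FGF21 against 6.84, 6.83 and 6.75 without, a difference of 0.05 ± 0.07 (SE) that was 0.0064 without FGF21 replicate 2 and 0.0251 without control replicate 3. Fgfr3 and Fgfr4, the remaining kinase receptors, were under the array median on every array. Fgfr3 stood at 5.59, 5.37 and 5.45 with FGF21 and 5.54, 5.41 and 5.67 without, and Fgfr4 at 5.53, 5.43 and 5.42 against 5.58, 5.51 and 5.61. The groups overlapped for both, and the differences were -0.07 ± 0.09 and -0.11 ± 0.07. Leaving out control replicate 2 moved that of Fgfr3 to -0.134, and leaving out control replicate 3 moved it to -0.0044.

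The co-receptors were dim. Klb, which FGF21 needs for high-affinity binding, stood at 5.17, 5.30 and 4.93 with FGF21 and 5.25, 5.23 and 5.09 without. Of the odorant receptor rows, 81.4% had a lower mean than Klb, so its brightness was inside their range. The difference of -0.06 ± 0.10 (SE) had a 95% interval from -0.27 to 0.15. Kl, the co-receptor of FGF23, stood at 4.79, 4.75 and 4.82 with FGF21 and 4.73, 4.80 and 4.75 without, brighter than 70.8% of the odorant receptor rows. These values do not tell a low level of either RNA from none, and a change in such a dim row is compressed by RMA.

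Fgf23, an endocrine ligand best known as the phosphate-lowering hormone of bone, had the largest absolute difference of the axis. Its row (probe set 17463338) stood at 8.19, 8.54 and 8.53 with FGF21 and at 8.93, 8.78 and 8.57 without. The groups did not overlap, but the closest values, 8.54 and 8.57, were nearly equal. The means were 8.42 ± 0.198 (SD, n = 3) with FGF21 and 8.76 ± 0.181 without, a difference of -0.34 ± 0.11 (SE) or 1.26-fold lower. The 95% interval ran from -0.59 to -0.08. The limma p was 0.0154 before adjustment and 0.324 after adjustment over all genes. FGF21 replicate 1 was the lowest array and control replicate 1 the highest: without the first, the difference was -0.22 with an unadjusted limma p of 0.0629, and without the second -0.25 with 0.0706. In the RefSeq order of protein-coding genes the neighbour of Fgf23 is Fgf6, a ligand of developing muscle, whose row was dim at 4.77 to 5.00 and differed by 0.00024.

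Ptpn11 encodes SHP2, the phosphatase that GAB1 and FRS proteins recruit and that is needed for full ERK activation. Its row (probe set 17452161) was 8.59, 8.81 and 8.70 with FGF21 and 8.51, 8.52 and 8.41 without, with no overlap. The difference was 0.22 ± 0.07 (SE), 1.16-fold higher, with a 95% interval from 0.05 to 0.39. The limma p was 0.0151 before adjustment and 0.322 over all genes. Without FGF21 replicate 2, the highest array, the difference was 0.16 and the unadjusted limma p 0.0657, and without control replicate 3, the lowest, 0.18 and 0.0569.

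Frs3, the docking protein also called SNT-2, was lower with FGF21: 5.85, 5.91 and 5.93 against 6.01, 6.10 and 6.03. The groups did not overlap, and the difference was -0.15 ± 0.06 (SE), 1.11-fold lower, with an interval from -0.29 to -0.01. The limma p was 0.0374 before adjustment and 0.394 after. The row was between the array median and the odorant receptor mark on every array. Another row, annotated to both Frs3 and its antisense neighbour Frs3os and therefore not used, went the other way, at 6.27 with FGF21 and 6.17 without. The unadjusted limma p of Frs3 was under 0.05 in 6 of 13 settings. Leaving out FGF21 replicate 1 gave 0.1, FGF21 replicate 2 gave 0.0654, control replicate 2 gave 0.118 and control replicate 3 gave 0.0562. It was 0.0868 with quantile normalization again, 0.103 with median centring and 0.0575 with a trend and robust prior, and the difference stayed between -0.171 and -0.115.

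**Figure D2:**
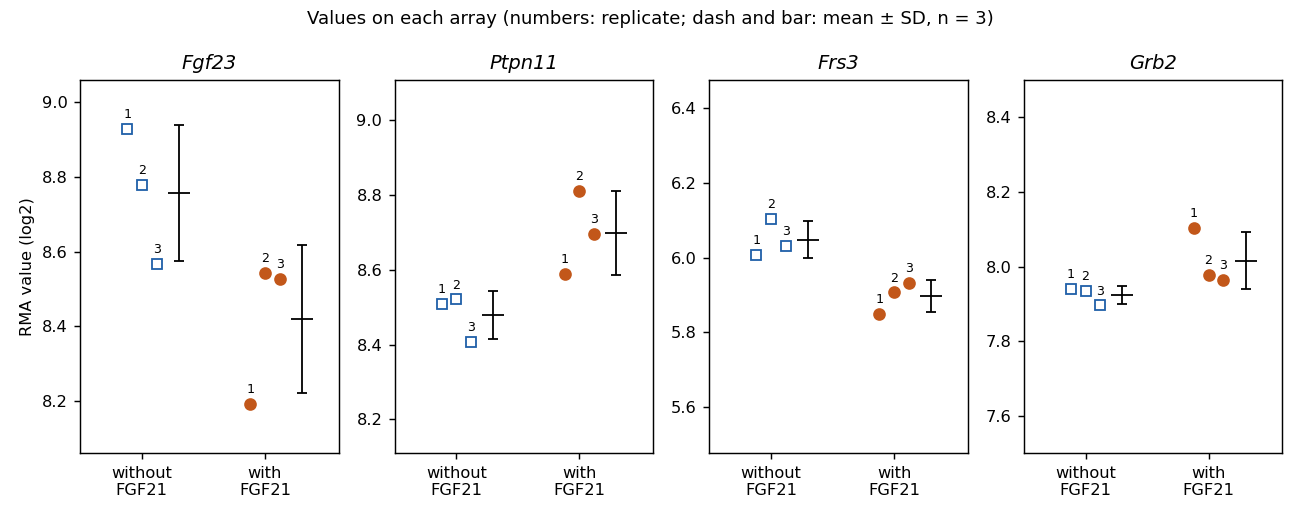
RMA values (log2) of Fgf23, Ptpn11, Frs3 and Grb2 on each array, without FGF21 (squares) and with it (circles), each numbered by replicate, with mean ± SD (n = 3); every panel spans 1 log2 unit. In all of them the groups do not overlap, with the closest values in Fgf23 at 8.54 and 8.57.

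The remaining adaptors differed by less. Grb2, whose SH2 domain binds phosphorylated docking proteins and whose SH3 domains carry SOS, stood at 8.10, 7.98 and 7.97 with FGF21 and 7.94, 7.94 and 7.90 without. The groups did not overlap, although the difference was 0.09 ± 0.07 (SE) and the limma adjusted p 0.612. It was 0.0478 without FGF21 replicate 1 and 0.0355 with quantile normalization again. Sos1, the exchange factor that loads RAS with GTP, was 8.56, 8.67 and 8.70 against 8.49, 8.58 and 8.50. Its difference of 0.12 ± 0.07 came with overlapping groups and a limma adjusted p of 0.515, and was 0.0548 with quantile normalization again. Its unadjusted limma p was 0.0433 without FGF21 replicate 1 and 0.0463 with median centring. Gab1, the scaffold that binds SHP2 and PI3K, was 8.79, 8.82 and 8.71 with FGF21 and 8.99, 8.63 and 8.71 without. The controls spread more widely than the treated arrays, and the difference of -0.0029 became 0.105 without control replicate 1. Sh2b1, an adaptor of several receptor kinases, stood at 6.40, 6.37 and 6.36 with FGF21 and 6.42, 6.33 and 6.50 without, a difference of -0.04 ± 0.07.

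The promoters of the 3 genes with the smallest p are shown, and they differ in base composition. Each covers 250 bases before and 50 after the annotated start, from RefSeq on build GRCm38.p6, read along the gene: Fgf23 at chr6:127072652-127072951 (+ strand), Ptpn11 at chr5:121191348-121191647 (- strand) and Frs3 at chr17:47694957-47695256 (+ strand). Capitals mark matches to the SP box GGGCGG on either strand.
Fgf23: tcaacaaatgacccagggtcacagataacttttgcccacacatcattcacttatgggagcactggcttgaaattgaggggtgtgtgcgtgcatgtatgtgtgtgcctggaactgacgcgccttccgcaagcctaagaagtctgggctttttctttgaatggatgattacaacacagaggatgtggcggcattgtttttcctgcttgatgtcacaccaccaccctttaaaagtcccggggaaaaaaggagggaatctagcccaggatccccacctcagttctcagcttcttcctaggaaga
Ptpn11: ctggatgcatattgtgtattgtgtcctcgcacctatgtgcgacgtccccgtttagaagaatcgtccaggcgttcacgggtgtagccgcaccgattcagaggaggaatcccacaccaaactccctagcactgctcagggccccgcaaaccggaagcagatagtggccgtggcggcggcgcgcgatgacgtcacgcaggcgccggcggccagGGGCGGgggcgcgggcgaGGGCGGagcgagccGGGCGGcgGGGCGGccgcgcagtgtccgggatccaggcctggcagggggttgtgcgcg
Frs3: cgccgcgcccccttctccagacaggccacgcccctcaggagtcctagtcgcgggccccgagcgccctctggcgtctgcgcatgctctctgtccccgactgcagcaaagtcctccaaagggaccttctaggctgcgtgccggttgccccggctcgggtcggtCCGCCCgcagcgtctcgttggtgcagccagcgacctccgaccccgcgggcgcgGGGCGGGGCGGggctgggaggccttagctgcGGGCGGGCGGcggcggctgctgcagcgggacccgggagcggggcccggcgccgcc
The Fgf23 promoter was 49.0% G and C with 6 CG dinucleotides and had no match. That of Ptpn11 was 68.7% G and C with 37 CG dinucleotides and 4 matches, and that of Frs3 76.7% with 39 and 5 matches, some of which overlap. None of these 3 promoters held the HIF core ACGTG, the TATA box TATAAA, the AP-1 letters TGANTCA or the ETS letters CCGGAAGT on either strand.

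Promoter entries were found for 28 of the 35 axis genes, 38 promoters in all, with 4 each from Fgf12 and Fgf13. The SP box was in 60.5% of them, against 35.7% of all 32851 promoters. The HIF core was in 15.8% against 19.6%, the TATA box in 10.5% against 13.6%, the AP-1 letters in 5.26% against 7.81%, and the ETS letters in 2.63% against 3.89%. The median number of CG dinucleotides in 300 bases was 27.5 for 6 adaptors, 24 for 4 receptors, 16.8 for 4 homologous factors, 14.5 for 2 co-receptors and 13 for 12 ligands, against 13.5 for all genes with an entry. The median G and C content was 63.2% for the 28 axis genes, against 56.3% for all genes with an entry. The SP box is made of G and C only, and its share was not compared at equal base composition. A match is a run of letters and not a measured binding site.

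Fgf21, which encodes the hormone that was added, did not pass the test. It stood at 5.87, 5.86 and 5.79 with the protein and 5.63, 5.88 and 6.06 without, a difference of -0.01 ± 0.10 (SE) with a 95% interval from -0.24 to 0.21. Its values lay around the array median and below the odorant receptor mark, and the 3 controls spread more widely than the 3 treated samples. Fgf15, the gut hormone that controls bile acid synthesis, was at 6.37, 6.24 and 6.18 with FGF21 and 6.27, 6.29 and 6.26 without. Its dimmer second row stood at 6.13, 6.03 and 5.88 against 6.46, 6.25 and 6.04, so the rows of this gene disagree, with differences of -0.01 and -0.24.

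Among the locally acting ligands, Fgf1, Fgf18 and Fgf22 were above the 75th percentile of all rows on every array. Fgf1, a broad activator of all FGF receptors that lacks a classical signal peptide, stood at 7.96, 7.84 and 7.80 with FGF21 and 7.94, 7.84 and 7.78 without. The means differed by 0.01 ± 0.07 (SE), less than the spread within either group. Fgf18, a ligand of bone and lung development, was at 7.37, 7.43 and 7.43 against 7.50, 7.43 and 7.66. Control replicate 3 was the highest array, and the difference of -0.12 ± 0.07 was -0.06 without it. Fgf22, a ligand that organises synapses, was at 7.31, 7.26 and 7.26 against 7.26, 7.27 and 7.25, the narrowest range of the ligands above the median.

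The other ligands above the array median were closer to it. Fgf2, the basic FGF released by injured heart cells, was at 5.89, 5.88 and 6.03 with FGF21 and 5.91, 5.91 and 5.86 without. Fgf9, a ligand made by the embryonic epicardium and endocardium, was at 6.09, 6.12 and 6.18 against 6.07, 6.19 and 6.17. Fgf10, a ligand of the second heart field and of limb and lung buds, was at 5.88, 5.98 and 5.90 against 6.00, 5.90 and 5.95. These 3 genes had overlapping groups, with differences of 0.04, -0.02 and -0.03. The dimmer row of Fgf10 had a difference of the opposite sign, 0.09.

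Fgf17, a relative of Fgf8 in brain patterning, was at 6.38, 6.46 and 6.21 with FGF21 and 6.49, 6.37 and 6.61 without. Its difference of -0.14 ± 0.09 (SE) did not pass, with a limma adjusted p of 0.550, and was -0.0726 without FGF21 replicate 3 and -0.0825 without control replicate 3. Fgf8, a ligand of early heart field and limb development, was at 6.25, 6.17 and 6.23 against 6.15, 6.25 and 6.15. Fgf4, a ligand of the early embryo, was at 6.42, 6.49 and 6.30 against 6.33, 6.42 and 6.38. Both had overlapping groups and differences of 0.03. Fgf4 lies between Fgf3 and Fgf15 in the RefSeq gene order, and the Fgf3 row was dim, at 5.23 to 5.43.

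Ligands not above the median on all arrays were Fgf3, Fgf5, Fgf6, Fgf7, Fgf16, Fgf20 and Fgf21. Their differences ran from -0.11 for Fgf16 to 0.02 for Fgf7, 3 of 7 being higher with FGF21. Fgf16, which is known from heart muscle after birth, stood at 4.92, 4.89 and 5.06 with FGF21 and 4.99, 5.07 and 5.14 without. Its level was brighter than 77.7% of odorant receptor rows and its limma adjusted p was 0.594. Fgf7, the keratinocyte growth factor made by fibroblasts, stood at 5.06 to 5.29 over the 6 arrays.

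The FGF homologous factors stay inside the cell, bind voltage-gated sodium channels and do not activate FGF receptors in the usual way. Fgf11 was at 8.004, 7.87 and 7.86 with FGF21 and 7.94, 7.59 and 7.71 without. Only control replicate 1 overlapped the treated group. The difference of 0.17 ± 0.09 (SE) had a limma p of 0.102 before adjustment and 0.514 after, and was 0.26 without control replicate 1 and 0.09 without control replicate 2. Fgf13, the main homologous factor of the mouse heart, was at 6.99, 7.0001 and 7.03 against 7.22, 7.10 and 6.99, a difference of -0.09 ± 0.07 that was -0.0371 without control replicate 1 and -0.149 without control replicate 3. Fgf12, the main one of the human heart, was at 7.26, 7.20 and 7.28 against 7.20, 7.20 and 7.28, a difference of 0.02 ± 0.06. Fgf14, a factor of neurons, was under the array median on every array, at 5.14 to 5.47.

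**Figure D3:**
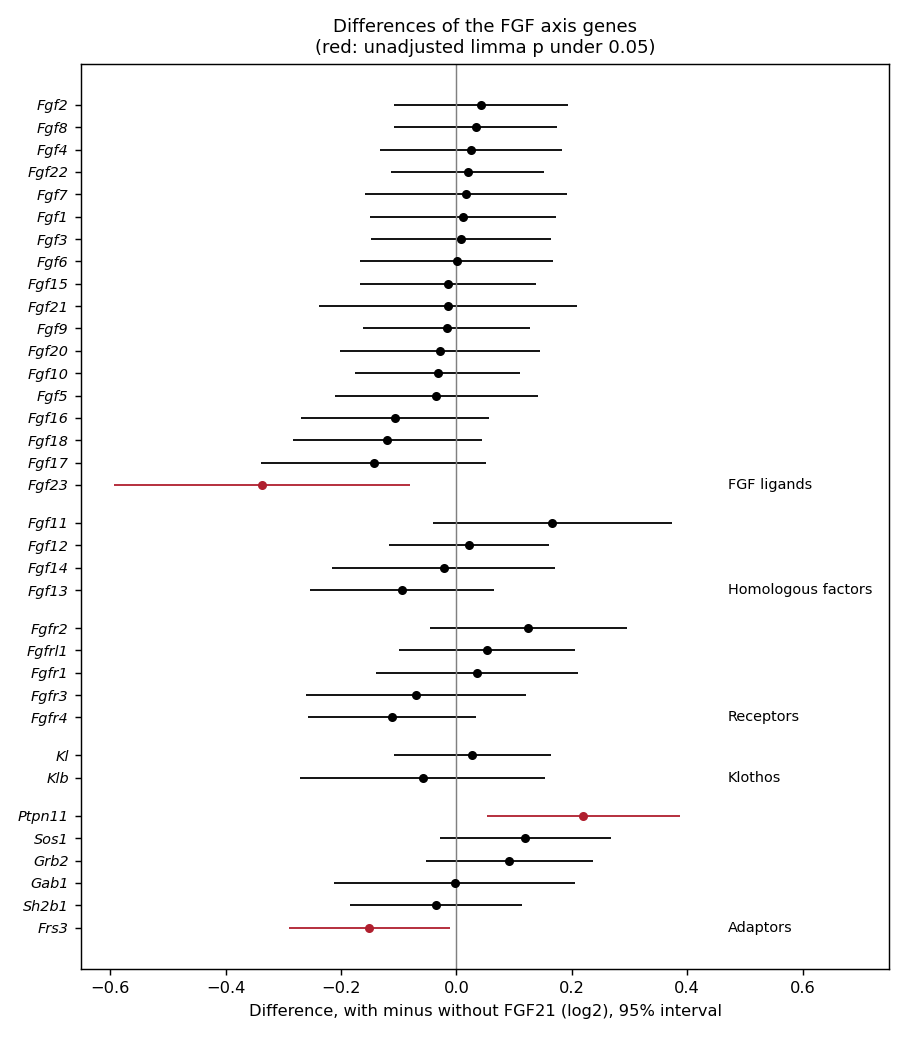
Log2 difference (with minus without FGF21) of the 35 measured FGF axis genes with its 95% interval from limma, grouped by role; red marks an unadjusted limma p under 0.05. The intervals of Fgf23 (-0.59 to -0.08), Frs3 (-0.29 to -0.01) and Ptpn11 (0.05 to 0.39) leave out 0, and those of all other genes include it.

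The genes around the receptors were read from 8 lists with 109 different symbols, of which 94 had a row. None passed limma over all genes (0 of 94). At an unadjusted p under 0.05 there were 10 higher and 2 lower, 12.8% of them, close to the 11.7% of all genes. By direction, all genes gave 6.59% higher and 5.11% lower. The medians and counts of the lists were not read under the alternative settings, such as another scaling of the arrays.

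In the RAS to ERK cascade, 13 of 20 symbols had a row, and the median difference was -0.0025. Map2k1, the kinase MEK1 just above ERK, stood at 9.70, 9.67 and 9.65 with FGF21 and 9.52, 9.43 and 9.40 without, with no overlap, a difference of 0.23 ± 0.06 (SE) and a limma adjusted p of 0.250. Nras, a RAS protein, differed by 0.16 (adjusted p 0.418), with its closest values at 9.17 and 9.16. Ksr2, a scaffold of the cascade, differed by -0.26 (adjusted p 0.267), on a row below the array median. In the branch of PI3K, phospholipase C gamma and STAT proteins, 14 of 17 had a row with a median of 0.03. There Prkca, the protein kinase C alpha that is activated downstream of phospholipase C, was at 8.29, 8.16 and 8.17 against 7.97, 7.93 and 7.92, a difference of 0.27 ± 0.07 and an adjusted p of 0.208.

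Feedback inhibitors and proteins of receptor turnover, such as the Sprouty, Spred and DUSP genes and the ubiquitin ligase Cbl, gave 0 of 15 at an unadjusted limma p under 0.05, with 6 higher, 9 lower and a median of -0.0076. Their differences ran from -0.20 to 0.13. Among transcription targets of FGF signalling, 9 of 10 had a row, 6 were higher and the median was 0.10. Ccnd1, the G1 cyclin gene, stood at 8.26, 8.24 and 8.05 with FGF21 and 7.82, 7.77 and 7.57 without, a difference of 0.46 ± 0.09 (SE) and a limma adjusted p of 0.119. Myc, the growth-promoting transcription factor gene, was at 8.70, 8.97 and 8.84 against 8.59, 8.57 and 8.47, a difference of 0.29 ± 0.08 and an adjusted p of 0.241. The groups did not overlap for either gene.

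Enzymes that build or trim heparan sulfate had 10 of 13 measured genes higher with FGF21 and a median of 0.09. Of all 22180 genes, 10591 were higher, and their median was -0.0056. Sulf1, which removes 6-O-sulfates from the chains, stood at 9.57, 9.45 and 9.50 with FGF21 and 9.26, 9.38 and 9.25 without, a difference of 0.21 ± 0.07 (SE) and a limma adjusted p of 0.298. Glce, the epimerase of the chains, differed by 0.18 (adjusted p 0.320) and Hs6st2, a 6-O-sulfotransferase, by 0.20 (adjusted p 0.388). Sulf1 and Hs6st2 act in opposite directions on the same sulfate. Among 11 core proteins that carry the chains, Sdc2 was at 9.57, 9.80 and 9.65 against 9.45, 9.51 and 9.33, a difference of 0.24 ± 0.08 and an adjusted p of 0.311. Sdc4, another syndecan, differed by 0.17 and Gpc2, a glypican whose row was dim, by -0.18, and the list median was 0.01.

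Proteins that bind or cleave FGFs or bind their receptors (10 genes, median -0.02) and sodium channel and other partners of the homologous factors (9 of 12 measured, median -0.04) had 0 genes at an unadjusted limma p under 0.05. The lowest adjusted p was 0.506 in the first list and 0.450 in the second.

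**Figure D4:**
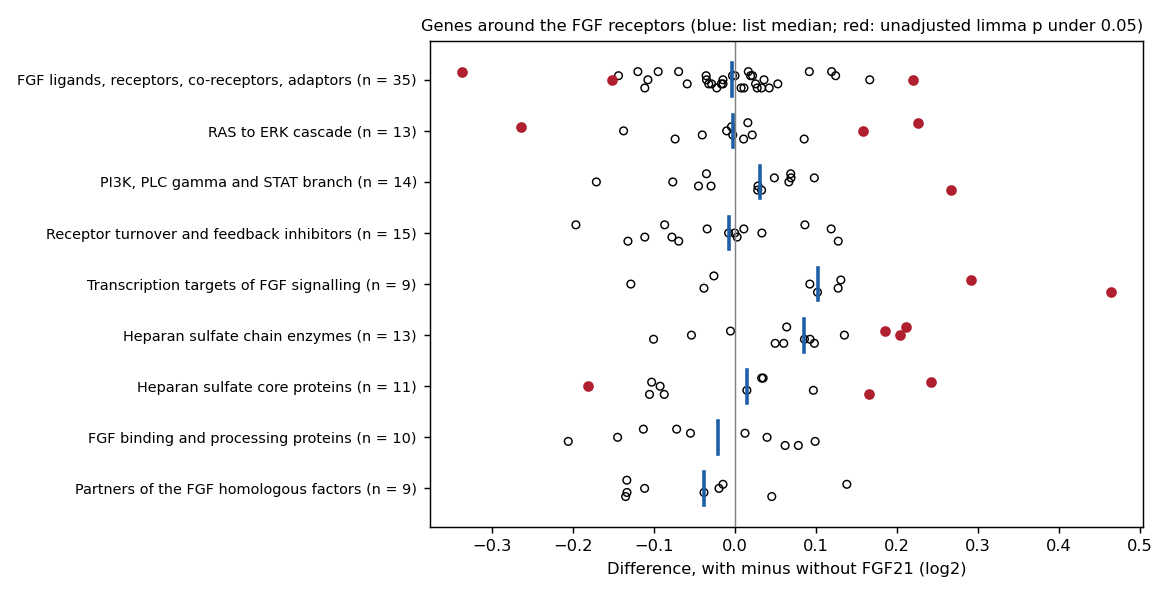
Log2 differences (with minus without FGF21) of the FGF axis genes and of 8 lists of genes around the receptors, 1 circle per gene, with the list median as a blue bar and genes at an unadjusted limma p under 0.05 in red. The medians run from -0.04 for partners of the homologous factors to 0.10 for transcription targets.

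Markers of some other cell types, but not of all, differed between the groups, and their part in the differences above was not tested. The defining genes of cardiomyocytes (8 of 8, among them Myh6, Tnnt2 and Actc1) were above the array median on all arrays, and so were those of fibroblasts (7 of 7), endothelium (8 of 8), smooth muscle and pericytes (8 of 8) and epicardium (6 of 6). For leukocytes it was 5 of 6. The summed linear signal of the 8 endothelial markers, given as its log2, was 10.5, 10.8 and 10.8 with FGF21 and 11.2, 11.04 and 10.9 without. The array with the lowest endothelial sum, FGF21 replicate 1, also had the lowest Fgf23, and the array with the highest, control replicate 1, had the highest Fgf23. This match was not particular to endothelium. The smooth muscle and pericyte sum was also lowest on FGF21 replicate 1 and highest on control replicate 1. Control replicate 1 had the highest cardiomyocyte sum too. These matches were seen afterwards and were not tested. At an unadjusted limma p under 0.05, 6 of the 8 endothelial markers were lower and 0 higher, where 5.11% of all genes were lower. Tek (0.004) and Tie1 (-0.04) had overlapping groups. The lists were chosen with earlier results of these data known, so this count is a description and not a test. The sum of smooth muscle and pericyte markers ran from 13.01 to 13.04 with FGF21 and from 13.07 to 13.2 without, a sum to which the bright Acta2 row, with a difference of -0.04, adds much. Within that list 3 of 8 genes were lower at an unadjusted limma p under 0.05 and 1 higher, where 6.59% of all genes were higher. Lower without overlap were Kcnj8, by -0.65 (limma adjusted p 0.0685), Rgs5, by -0.49, and Abcc9, by -0.45, and higher was Myh11, by 0.16. The groups overlapped for Pdgfrb, another pericyte marker of the list (-0.03), and for Cnn1 (-0.17), Acta2 and Tagln (0.06). The sum of epicardial markers ran from 10.3 to 10.4 against 10.2 to 10.3. It was higher on every treated array, but the closest sums, 10.295 and 10.289, were nearly equal. Of these 6 markers 4 were higher and 2 lower, with 2 higher (Krt19 and Msln) and 0 lower at an unadjusted limma p under 0.05. Sums of cardiomyocyte markers (15.1 to 15.2 against 15.1 to 15.3), fibroblast markers (14.4 in both groups) and leukocyte markers (11.2 to 11.3 in both groups) overlapped. Single leukocyte markers went opposite ways without overlap: Ptprc differed by 0.20 and Cd68 by -0.20, both at an unadjusted limma p under 0.05. Of the Schwann and neural markers, 3 of 5 had a row, with overlapping sums of 8.08 to 8.59 against 7.91 to 8.18. These genes disagreed: Tubb3, the brightest, differed by 0.47 with overlapping groups, and S100b by -0.22 and Sox10 by -0.15 without overlap. The S100b row was dim, under the array median on every array. Of the red cell markers, 1 of 4 had a row, Epb42, at 5.29 to 5.38 against 5.49 to 5.58. This row was also under the array median on every array. In RNA from a mixed culture, fewer cells of a type and less RNA per cell cannot be told apart.

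**Figure D5:**
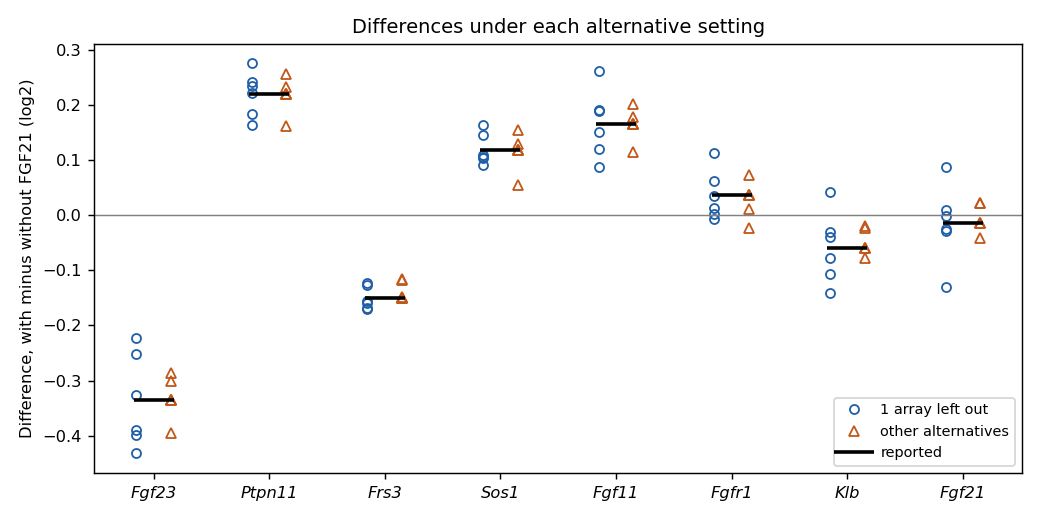
Log2 difference (with minus without FGF21) of 8 FGF axis genes as reported (bar), with 1 array left out (circles) and under the other alternatives (triangles). Fgf23 stays between -0.43 and -0.22 and Ptpn11 between 0.161 and 0.275, while Fgfr1, Klb and Fgf21 fall on both sides of 0.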

How the data were processed

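Gene expression was measured on 6 arrays, 3 per group, grouped by their titles. The deposited values are log2 values that the authors computed by RMA, with R 3.2.2 and affy named in the submitters' processing notes. No chip definition or build is given in the sources used here, so coordinates are only those of the RefSeq promoters. RMA is meant to equalise the arrays, which can hide a shift of all genes. The deposited array medians still differed, from 5.76 to 5.83, and were lower on every array with FGF21 than on every control array. Values ran from 3.23 to 13.7, 0 array pairs were identical, and correlations between arrays were 0.993 to 0.997. No reads are counted on arrays, so the number of arrays limits the precision.

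Of 41345 rows, 23521 had 1 symbol in the platform annotation. For several rows of a gene the brightest on average was used, leaving 22180 genes. They were fitted with limma 3.58.1 in R 4.3.3 (lmFit, eBayes, no covariate, two-sided), and p-values were adjusted by Benjamini-Hochberg over all genes, with a threshold of 0.05. The fit was tested on simulated data. Values for every array were given for receptors, co-receptors, adaptors, Fgf21, ligands and homologous factors above the array median on all arrays, and genes at an unadjusted p under 0.05. For the lists around the receptors up to 4 such genes were named. Fgf6, Fgf7, Fgf14 and Fgf16 were named after their values were seen, and so were the second rows. The genes and lists were chosen with earlier results of these data known. The labels call the samples biological replicates without naming litters or cultures, so the spread behind each p-value may be partly technical. Alternatives were a replicate block, leaving out arrays, other row, scaling, prior and weight settings, and other marks of brightness.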

Additional observations from a re-analysis of the deposited data

How the results depend on the processing

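Of 355 values of 28 axis genes under the alternatives, 325 kept the direction and side of the threshold, and 30 changed sign. All 30 were of genes whose reported difference lay from -0.0587 (Klb) to 0.0424 (Fgf2). No axis gene passed limma over all genes under any of 15 alternatives (0 genes), including a threshold of 0.1. Over all genes the count of 0 calls became 2 when a gene's rows were averaged, 5 with quantile normalization again, 12 with median centring, 16 with a trend and robust prior, 2 with array weights, 58 after leaving out genes dimmer than the median gene and 28 at a threshold of 0.1, and ran from 0 to 2 with 1 array left out. Axis genes at an unadjusted p under 0.05 numbered from 1 to 3 with 1 array left out, 1 of them without FGF21 replicate 2 or control replicate 3. Axis genes whose groups did not overlap numbered from 5 to 13 with 1 array left out, where fewer values are compared. The shares of all genes with 1 array left out were not taken, so these counts have no background beside them. Above the 75th percentile of all rows, in place of the median, were 11 axis genes (31.4%), against 28.8% of all genes. Above the 99th percentile of odorant receptor rows were also 11 (31.4%), against 30.4% of all genes.

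With quantile normalization again the difference changed sign for Fgf1 (-0.0419), Fgf9 (0.0064), Fgf10 (0.0031), Fgf12 (-0.0081), Fgf15 (0.0075), Fgf21 (0.0217), Fgf22 (-0.0125) and Fgfr1 (-0.023). With median centring, which moves the median of all genes to 0.03, it did so for Fgf9 (0.0194), Fgf10 (0.0039), Fgf15 (0.0215), Fgf21 (0.0215), Gab1 (0.0332) and Sh2b1 (0.00072), with averaged rows for Fgf10 (0.0314) and with array weights for Gab1 (0.0191). The cause was not tested. With 1 array left out the ranges were -0.0352 to 0.0549 for Fgf1, -0.0080 to 0.0711 for Fgf2, -0.0176 to 0.0789 for Fgf4, -0.0522 to 0.0054 for Fgf9, -0.0686 to 0.027 for Fgf15, -0.13 to 0.087 for Fgf21, -0.0077 to 0.113 for Fgfr1, -0.142 to 0.0426 for Klb, -0.0763 to 0.105 for Gab1 and -0.0786 to 0.0072 for Sh2b1. The replicate numbers are not stated to pair the arrays, and the correlations between same-numbered arrays, after subtracting group means, were 0.103, 0.158 and 0.00653. With the replicate block, 0 axis genes passed over all genes and 4 had an unadjusted p under 0.05, with Fgf11 added (0.0456).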

Other observations

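Some axis genes hold exactly the same deposited value on several arrays. Fgf22 and Fgf18 each share 1 value on 3 arrays, and Fgf13 on 2. Over all 22180 genes, 10.9% hold an equal value on at least 2 arrays. How this came about was not tested.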
